A study of Mus musculus with 96 samples.

Results

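The cardiomyocyte (CM) libraries of Day 7 after myocardial infarction were set against those of Day 3. They were 4 libraries of Day 7 and 4 of Day 3, chosen by their sample titles, which is 8 of the 96 libraries of the series and 8 of its 24 CM libraries. All mice were male C57Bl/6J of 12 to 14 weeks, and in both groups acute myocardial infarction (AMI) had been produced by tying off a branch of the left coronary artery for good, with hearts harvested on Day 7 or Day 3. The course also holds CM of Days 1, 14 and 28 and of mice without surgery (Day 0). Their libraries entered the fit for its filter on reads, its scaling and its estimate of spread. Some of their values are given for comparison. CM were taken from the collagenase-digested heart as the pellet of repeated low-speed centrifugation, so no surface marker was used. Each library was a pool from 3 mice (2 where a sample was missing), and the 4 libraries of a group are called biological replicates in one place and technical replicates in another. The p-values measure the spread between these pools. Infarct, border and remote myocardium were not separated, and each time point mixed animals of several surgery days.

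CM are the contracting cells of the heart. A permanent ligation kills most of them in the supplied territory, and surviving CM take up a stress program with natriuretic peptides, the stretch-responsive cofactor Ankrd1 and fetal contractile genes. Monocytes and macrophages clear the dead tissue in the first days, after which proliferating fibroblasts lay down a collagen scar that is later remodelled by crosslinking, elastic fibers and small proteoglycans. In the mouse, Day 3 falls in the inflammatory and proliferative phase and Day 7 in the phase of scar formation. Transcripts of macrophages, endothelial cells (EC) and fibroblasts (FB) were read in these CM libraries too. In bulk RNA, fewer cells of a type and less RNA per cell cannot be told apart.

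The Day 7 libraries held 25247834 to 33331033 estimated reads and the Day 3 libraries 35073563 to 41387755. The 2 mitochondrial rRNA genes took 55.6 to 60.2% of the reads at Day 7 and 53.7 to 58.0% at Day 3. A single gene, Gm42418, which overlaps an rRNA repeat, took 1.04 to 3.90% at Day 7, against 1.96 to 5.54% in Day 3 replicates 1 to 3 and 13.1% in Day 3 replicate 4, the library that stood most apart. Levels are given in CPM, the reads of a gene over all reads of its library on a fixed scale, after TMM scaling, which levels the libraries on the genes that move least. The summed CM markers (Tnnt2, Tnni3, Nppb, Actc1) reached 3109 to 3965 CPM at Day 7 and 3362 to 4259 CPM at Day 3. EC markers (Flt1, Kdr, Pecam1, Cdh5) summed to 66.5 to 83.9 CPM at Day 7 and 66.4 to 87.2 CPM at Day 3, and FB markers (Fap, Ddr2, Tcf21, Pdgfra) to 7.34 to 10.1 CPM at Day 7 and 6.14 to 8.62 CPM at Day 3. Hematopoietic cell (HC) markers (Itgax, Itgal, Cd53, Ptprc) were the only one of these 4 marker sets whose groups did not overlap, at 1.99 to 3.28 CPM at Day 7 and 5.14 to 7.21 CPM at Day 3. Only 2 of these HC markers had enough reads for the test given below, and 1 was called lower. It was Cd53, with means of 0.809 CPM at Day 7 and 3.25 CPM at Day 3. None of the 16 markers was at 0 reads over a group, while none of the 10 T and NK cell genes had enough reads to be tested.

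Of 14540 genes tested, 452 were higher at Day 7 and 848 were lower (edgeR's quasi-likelihood test, Benjamini-Hochberg adjusted p under 0.05), which is 3.11% and 5.83% of the genes tested and 8.94% in both directions together. The lower group held the larger changes: 324 of its genes moved over 2-fold, against 88 of the higher genes, and the median log2 fold change (Day 7 over Day 3) of all genes was 0.03. All 4 Day 7 libraries lay below all 4 Day 3 libraries in 783 of the 848 lower genes and above them in 362 of the 452 higher genes. Among all genes tested such separation occurred in 10.5% downward and 8.29% upward. The higher calls withstood the loss of a library less often than the lower calls did. When each of the 8 libraries was left out in turn, 347 lower genes but only 43 higher genes were called in all 8 fits. The count of higher genes was 225, 95 and 102 without Day 3 replicates 2, 3 and 4, and 68, 173 and 157 without Day 7 replicates 1, 2 and 4, while that of lower genes was 509 and 538 without Day 3 replicates 3 and 4, and 400, 528 and 475 without Day 7 replicates 1, 2 and 4.

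The split also moved with the handling of transcript length. The median annotated length of expressed transcripts was 4071 bases in the higher genes, 1712 bases in the lower genes and 2477 bases in all genes. With effective transcript lengths as offsets in the same model, 63 genes (0.433%) were higher and 253 (1.74%) lower. Another test, limma on log2(TPM + 1), a level that divides reads by effective length, called 20 higher and 1746 lower. The TPM were not scaled by TMM, and the median of all genes was -0.06 there. In that fit, length, scaling and test cannot be told apart. Calls in the gene groups with these offsets are given beside the larger groups and, for the others, in the account of transcript length.

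**Figure D1:**
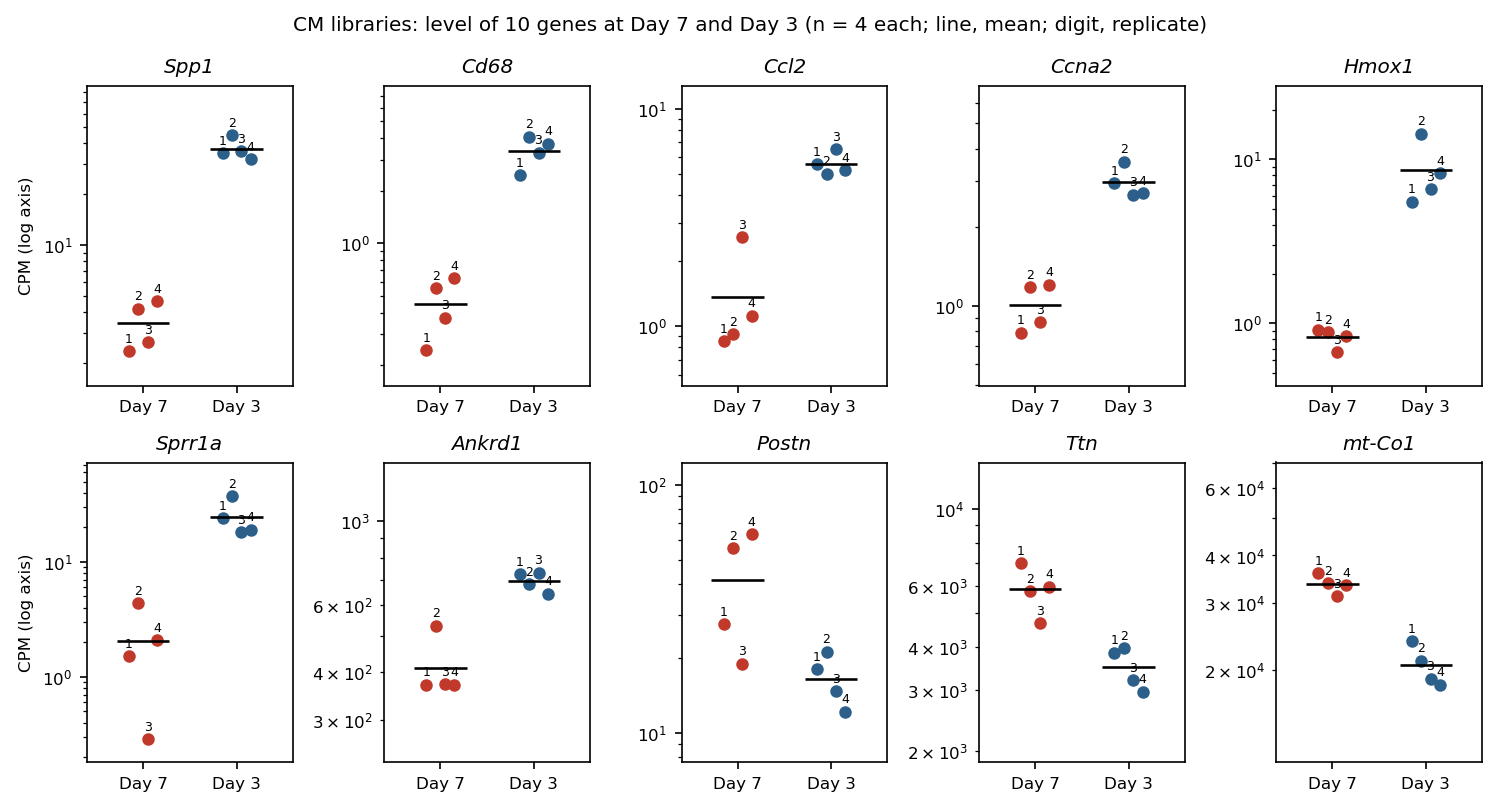
Level of 10 genes in each CM library in CPM on a log axis, Day 7 left and Day 3 right (n = 4 each, digit for the replicate, line for the mean). The 4 Day 7 libraries lie below all Day 3 libraries for Spp1, Cd68, Ccl2, Ccna2, Hmox1, Sprr1a and Ankrd1 and above them for Ttn and mt-Co1, while the groups overlap for Postn.

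Macrophage genes were lower at Day 7. Osteopontin (Spp1, chr5:104435118-104441050, plus strand), a secreted glycoprotein made by macrophages of the infarct among others, had 2.34, 4.20, 2.65 and 4.65 CPM in Day 7 libraries, against 35.1, 44.8, 35.8 and 32.2 CPM in Day 3 libraries. The highest Day 7 library was under the lowest Day 3 library, and the log2 fold change was -3.42 ± 0.34 (SE, n = 4 each, adjusted p = 4.42e-06). Cd68, a lysosomal glycoprotein used to mark macrophages, had 0.243, 0.553, 0.375 and 0.631 CPM at Day 7, against 2.45, 4.09, 3.31 and 3.72 CPM at Day 3 (log2 fold change -2.91 ± 0.36, adjusted p = 2.23e-05). Lyz2, the lysozyme of myeloid cells, had 9.46, 9.99, 12.9 and 13.3 CPM at Day 7, against 31.1, 51.7, 34.5 and 42.4 CPM at Day 3 (-1.81 on the log2 scale). None of these groups overlapped, and all 3 calls held in each of the 8 fits that left out 1 library. Of 17 genes of the osteopontin and lipid-associated macrophage list, 10 fell and none rose, with a median log2 fold change of -1.14, and 7 were called lower with length offsets. The others that fell were Arg1, the arginase of reparative macrophages (-2.46), Trem2, a lipid-sensing receptor (-2.12), the galectin Lgals3 (-2.01), the fatty acid chaperone Fabp5 (-1.53), Gpnmb (-1.42, groups overlapping), Cd63 (-1.14) and the lysosomal protease Ctsb (-0.66). Arg1 was not called without Day 7 replicate 1 (adjusted p = 0.0514), and Gpnmb was not called without any one of Day 3 replicate 2, Day 3 replicate 4, Day 7 replicate 1, Day 7 replicate 3 (adjusted p up to 0.0857). Apoe (log2 fold change -0.82, adjusted p = 0.252) and Ctsd (-0.01, adjusted p = 0.992), which CM and other cells also express, did not pass the test.

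Genes of a list of resident macrophage markers fell with them. Of 12 tested genes of that list 8 were lower and none higher, with a median of -1.48, and all 12 estimates were below 0. Folr2, a folate receptor, had 0.0304, 0.184, 0.231 and 0.115 CPM at Day 7, against 0.534, 0.839, 0.620 and 1.12 CPM at Day 3, at 1, 5, 8 and 4 estimated reads in Day 7 libraries and 22, 40, 27 and 39 in Day 3 libraries. The mannose receptor Mrc1 had 2.98, 1.70, 2.39 and 2.32 CPM at Day 7, against 5.48, 8.96, 5.44 and 4.84 CPM at Day 3 (-1.39, adjusted p = 0.00382). C1qa, C1qb and C1qc, the 3 chains of the complement recognition molecule C1q and neighbours in the genome, changed by -1.42, -1.54 and -1.63 on the log2 scale, and only C1qa lost its call in a fit (without Day 7 replicate 1, adjusted p = 0.0532). Lyve1, Cd163, Gas6 and Cx3cr1 did not pass, at -0.24, -0.27, -0.25 and -0.75. The summed resident macrophage list was 18.7 to 29.9 CPM at Day 7 and 37.96 to 56.6 CPM at Day 3. In unoperated hearts (Day 0) Mrc1 and C1qa averaged 0.634 and 0.250 CPM, against 6.18 and 4.40 CPM at Day 3. Whether resident or recruited macrophages held these transcripts was not tested. The complement list went both ways. Of its 15 tested genes 5 were lower and 1 higher (Serping1, called in none of the 8 leave-one-out fits), 5 were higher at an unadjusted p under 0.05, and 9 estimates were above 0, with a median of 0.39. Its summed level was 168.9 to 210.0 CPM at Day 7 and 125.6 to 150.1 CPM at Day 3, higher without overlap. In the Toll-like receptor and inflammasome list 4 of 14 were lower and none higher. Among receptors of phagocytes, the anaphylatoxin receptors C5ar1 (-2.54, adjusted p = 0.000413) and C3ar1 (-2.11, adjusted p = 0.000413), the endosomal receptor Tlr13 (-2.43), the lipopolysaccharide co-receptor Cd14 (-1.54), the monocyte chemokine receptor Ccr2 (-1.85) and the integrin chains Itgb2 (-1.68) and Itgam (-1.28) were lower. Ccr2 was the only one of 7 tested monocyte markers to pass, with 3 of the 7 estimates above 0 and a median of -0.23, and that list summed to 59.6 to 121.1 CPM at Day 7 and 55.7 to 85.1 CPM at Day 3. The neutrophil list summed to 7.21 to 16.4 CPM at Day 7 and 18.2 to 34.3 CPM at Day 3, but of its 4 tested members only Lcn2 passed (-2.76, adjusted p = 0.000142), and S100a8 and S100a9 did not (adjusted p = 0.435 and 0.417). The part of leukocytes in the pellets in these results was not tested.

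Chemokines that attract monocytes were lower as well. Ccl2, the main ligand of Ccr2, had 0.852, 0.922, 2.56 and 1.12 CPM at Day 7, against 5.55, 5.03, 6.52 and 5.21 CPM at Day 3. Day 7 replicate 3 stood above the other Day 7 libraries and still below every Day 3 library (log2 fold change -2.02 ± 0.40, adjusted p = 0.00376). Its neighbours on chromosome 11, Ccl7 (chr11:82045712-82047525, plus strand) and Ccl12 (chr11:82101845-82103400, plus strand), are close paralogs whose reads may be shared, and changed by -2.54 and -3.55 on the log2 scale. In all, 11 of 19 tested cytokines and chemokines were lower and none higher, with a median of -1.76, and 8 of the 11 were called in all 8 leave-one-out fits. Cxcl2, which draws neutrophils, changed by -2.17 and the interleukin Il1b by -1.96, on 9, 1, 5 and 5 reads in Day 7 libraries and 16, 26, 24 and 33 in Day 3 libraries. Il6 (-0.68, adjusted p = 0.388), Tnf (-0.97, adjusted p = 0.231), Cxcl12 and Il33 did not pass, and Il1a, Il10, Lif, Osm, Csf3 and Ccl5 had too few reads to test. Of 27 tested interferon response genes edgeR called none, 4 were lower at an unadjusted p under 0.05, and DESeq2, another test of counts, called 1 lower. The acute phase list was lower in 7 of 11 tested members (median -1.12), among them the interleukin-1 receptor antagonist Il1rn (-2.36, adjusted p = 0.00470), the protease inhibitor Serpina3n (-1.74, adjusted p = 6.05e-05), Socs3, the feedback inhibitor of interleukin-6 signalling (-0.94), and the factors Cebpb (-1.13) and Cebpd (-1.11). The metallothionein Mt2 was lower in all Day 7 libraries (5.90, 10.4, 12.6 and 7.60 CPM, against 23.9, 24.1, 21.1 and 31.6 CPM at Day 3), but its call did not hold in 6 of the 8 leave-one-out fits (adjusted p up to 0.113).

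**Figure D2:**
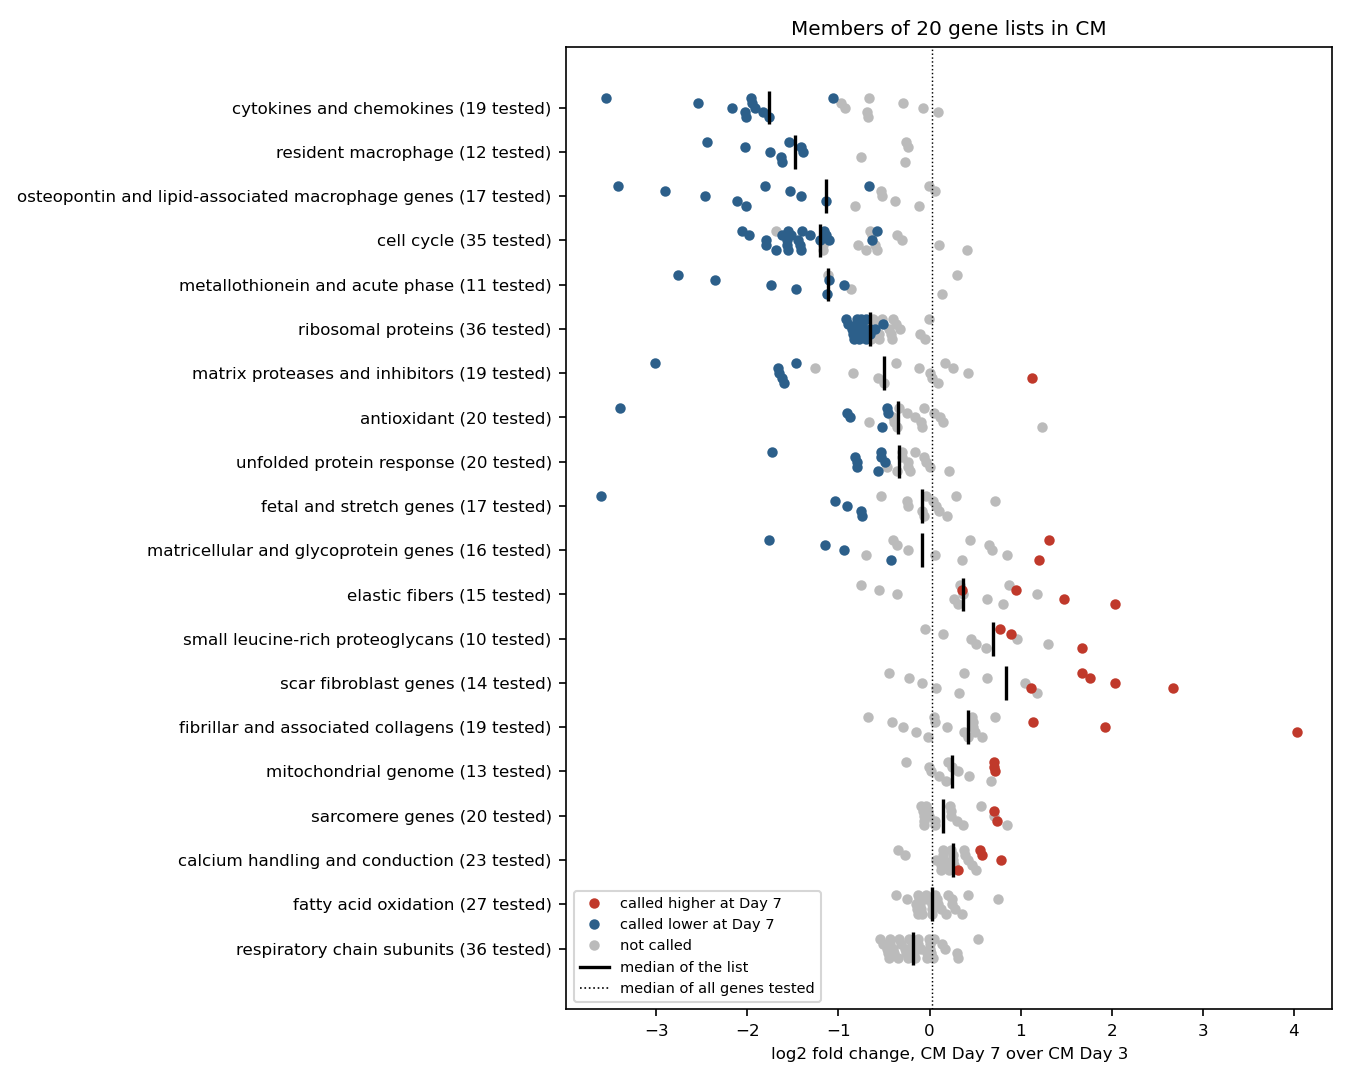
Log2 fold change of CM Day 7 over CM Day 3 for each tested member of 20 gene lists (red, called higher; blue, called lower; gray, not called; black bar, median of the list; dotted line, median of all genes at 0.03). The medians of the immune, cell cycle, ribosomal protein and stress lists lie left of 0, while the scar fibroblast, collagen, proteoglycan and elastic fiber lists and the mitochondrial genome have called members only on the right.

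Cell cycle genes were lower as a group. Of 35 genes, 22 fell, none rose, and 33 estimates were below 0, with a median of -1.21. Ccna2, the cyclin of S phase and G2, had 0.791, 1.18, 0.865 and 1.21 CPM at Day 7, against 2.96, 3.57, 2.66 and 2.71 CPM at Day 3 (log2 fold change -1.56 ± 0.28, adjusted p = 0.00139). Cdk1, the kinase that drives mitosis, had 0.548, 0.848, 0.692 and 0.717 CPM at Day 7, against 1.84, 2.79, 1.63 and 2.05 CPM at Day 3 (-1.57). No Day 7 library reached a Day 3 library for either gene. The mitotic activator Cdc20 (-2.06), the factor Foxm1 (-1.98), the spindle protein Tpx2 (-1.80), the kinase Plk1 (-1.62), cyclins Ccnb1 and Ccnb2 (-1.41 and -1.68), the topoisomerase Top2a (-1.14) and the replication genes Mcm3, Mcm5, Mcm6, Rrm2 and Pcna (-1.55, -1.52, -1.21, -1.45 and -0.57) were called in all 8 leave-one-out fits, as were 16 of the 22 in all. With length offsets 9 of the 35 were called lower, among them Ccna2 and Cdc20 (adjusted p = 0.0387 and 0.0340), while Cdk1, Foxm1 and Top2a were not (0.300, 0.144 and 0.356). Mki67, a marker of proliferating cells, was at -0.79 and did not pass (adjusted p = 0.127), nor did Aurkb, Bub1, Bub1b, E2f1 and Ccne1, while Ccnd2 and Cenpf were at 0.11 and 0.41. These are low levels in a CM library: the 35 genes together summed to 95.7 to 106.7 CPM at Day 7 and 123.3 to 143.5 CPM at Day 3. Which cells held these transcripts was not tested. Of 11 tested replication-dependent histone genes, whose near-identical copies share reads, only Hist1h1b fell (-2.24, adjusted p = 0.0103).

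The promoters of cell cycle genes carry a short element, the cell cycle genes homology region (CHR), through which the DREAM complex and B-Myb act. Windows around it are shown because the genes fell together. The letters TTTGAA, searched on both strands between 250 bases before and 50 after the RefSeq start (GRCm38.p6), occurred in 20.2% of 27025 genes and in 13 of the 26 cell cycle members with a promoter in that table. They were in 9 of the 17 members called lower and in 4 of the 9 not called. The following 30-base windows are written 5′ to 3′ on the strand of the gene, with the match in capitals.
Cdc20 (chr4:118437344-118437373, minus strand): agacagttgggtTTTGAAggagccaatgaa
Cdk1 (chr10:69352966-69352995, minus strand): ctgattggctccTTTGAAcgtctacgtgca
Ccnb2 (chr9:70421704-70421733, minus strand): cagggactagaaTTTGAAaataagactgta
A match is a description of the letters and not evidence of a site in use.

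Matrix genes moved in both directions. Timp1, an inhibitor of metalloproteinases, had 3.71, 4.57, 6.95 and 4.10 CPM at Day 7, against 10.9, 14.2, 12.3 and 15.9 CPM at Day 3 (log2 fold change -1.46 ± 0.35, adjusted p = 0.0133, not called without Day 7 replicate 1, where adjusted p = 0.0570). The urokinase Plau (-1.59) and its receptor Plaur (-1.67) were lower too. The protease Adam8, of leukocytes among others, changed by -3.01, and the aggrecanase Adamts4 by -1.62. In all, 6 of 19 tested proteases and inhibitors fell and 1 (Mmp2) rose. Among matricellular proteins, which signal from the matrix without building it, 4 of 16 tested were lower and 2 higher. Tgfbi, Ccn2, Ccn1 and tenascin C (Tnc) fell, with log2 fold changes of -1.76, -0.94, -0.42 and -1.15. Tnc held its call in 3 of the 8 leave-one-out fits and Ccn1 in 4 (adjusted p up to 0.0897 and 0.0934). In the TGF-beta list 6 of 22 members were lower and none higher, namely the ligands Bmp2 (-1.57), Inhbb (-1.53), Gdf15 (-1.53) and Tgfb2 (-0.90), the inhibitor Smad7 (-0.43) and the receptor Tgfbr2 (-0.41, groups overlapping). Of 18 enzymes that process collagen, 4 were lower: P4hb (-0.66), Pcolce2, Serpinh1 and Crtap, called in 8, 5, 7 and 3 of the 8 leave-one-out fits. None of the 18 was called with length offsets.

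Some genes of the maturing scar were higher, unevenly among the Day 7 pools. Periostin (Postn, chr3:54361109-54391037, plus strand), secreted by activated fibroblasts, had 27.4, 55.7, 19.02 and 63.1 CPM at Day 7, against 18.1, 21.2, 14.8 and 12.2 CPM at Day 3. Day 7 replicates 2 and 4 were above every Day 3 library, replicate 3 was not, and the groups overlapped (log2 fold change 1.32 ± 0.36, adjusted p = 0.0269). Elastin (Eln) had 5.60, 14.4, 5.24 and 16.6 CPM at Day 7, against 4.24, 4.07, 3.61 and 3.14 CPM at Day 3 (1.47, adjusted p = 0.0100). Cilp, a matrix protein of late activated fibroblasts, had 1.64, 5.35, 1.67 and 4.30 CPM at Day 7, against 0.849, 1.24, 0.712 and 0.980 CPM at Day 3 (1.77, adjusted p = 0.0172). Day 7 replicates 2 and 4 held the 2 highest values for all 3 genes. Mfap4, a microfibril-associated glycoprotein, changed by 2.04 ± 0.43 (adjusted p = 0.00496) and was, with Eln, called in all 8 leave-one-out fits. Postn was not called without any one of Day 3 replicate 3, Day 3 replicate 4, Day 7 replicate 2, Day 7 replicate 4 (adjusted p up to 0.0941), and Cilp was not called without any one of Day 3 replicate 3, Day 7 replicate 2, Day 7 replicate 4 (up to 0.0631).

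The scar genes with the fewest reads showed the largest ratios. C1qtnf3 had 15, 42, 6 and 25 estimated reads in Day 7 libraries and 0, 3, 0 and 0 in Day 3 libraries, 88 against 3 in all, a ratio per library size of 37.8 with an exact counting interval of 12.5 to 187.0. The short-chain collagen Col8a2 had 6, 23, 2 and 25 reads at Day 7 and 0, 2, 2 and 0 at Day 3 (ratio 18.1, counting interval 6.67 to 68.6). Comp, a pentameric protein of cartilage and scar, had 8, 31, 2 and 38 reads at Day 7 and 2, 7, 4 and 3 at Day 3 (ratio 6.37, 3.69 to 11.7). These intervals cover counting error only, and the reads came mostly from Day 7 replicates 2 and 4. With so few reads at Day 3, these 3 genes entered the test through libraries of other days and could hardly have come out lower. C1qtnf3 was also chosen after its values were seen. In all, 5 of 14 tested scar fibroblast genes rose (median 0.84), 4 of 15 elastic fiber genes (0.37), 3 of 19 collagens (0.42) and 3 of 10 small leucine-rich proteoglycans (0.70), with none of these lists holding a lower gene. In all 8 leave-one-out fits 1, 2, 1 and none of them were called higher, and with length offsets 2, 3, 1 and 1 members of these 4 lists were. The proteoglycans were Ogn (0.77), Lum (0.89) and Fmod (1.67), called in 2, 1 and 3 of the 8 leave-one-out fits. Mmp2, the gelatinase of mesenchymal cells, rose by 1.13 and thrombospondin 2 (Thbs2) by 1.20, called in 6 and 5 of those fits. The main fibrillar collagens did not pass the test, Col1a1 at 0.05 ± 0.30 (adjusted p = 0.932) and Col3a1 at 0.42 ± 0.25 (0.280). FB markers changed by 0.55 (Fap), 0.32 (Ddr2), 0.27 (Tcf21) and 0.08 (Pdgfra), and none passed. The mesothelial list summed to 60.6 to 77.6 CPM at Day 7 and 35.8 to 41.2 CPM at Day 3 without overlap, and its mucin Muc16 had the highest log2 fold change among separated genes whose mean reached 10 CPM (28.3, 27.8, 18.01 and 29.9 CPM at Day 7, against 9.65, 6.94, 6.18 and 5.13 CPM at Day 3, 1.90, adjusted p = 0.0225, called in 3 of the 8 leave-one-out fits). None of the other 7 mesothelial genes passed, with estimates between -0.85 (Krt8) and 0.83 (Upk3b). The share of fibroblasts and mesothelial cells in the pellets was not tested.

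**Figure D3:**
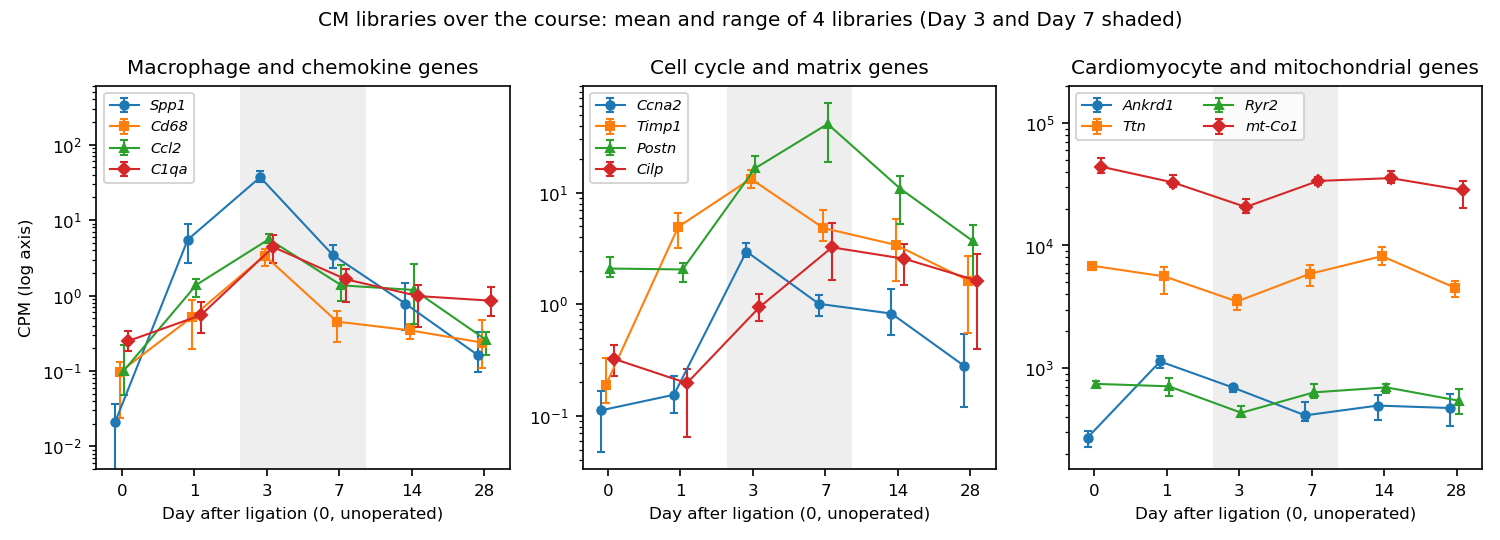
Mean and range of 4 CM libraries at each day in CPM on a log axis, with Day 3 and Day 7 shaded (a range that reaches 0 runs to the edge of the panel). Spp1, Cd68, Ccl2, C1qa, Ccna2 and Timp1 have their highest mean at Day 3, Postn and Cilp at Day 7, and Ttn, Ryr2 and mt-Co1 have their lowest mean at Day 3.

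Stress genes of CM were lower in part. Sprr1a, a cornified envelope precursor that injured CM and neurons induce, had 1.52, 4.35, 0.288 and 2.09 CPM at Day 7, against 24.01, 37.5, 18.1 and 19.1 CPM at Day 3 (log2 fold change -3.61 ± 0.56, adjusted p = 0.000627), the lowest log2 fold change among separated genes that averaged 10 CPM or more. Ankrd1, the stretch-responsive cofactor, had 371, 531, 373 and 371 CPM at Day 7, against 724, 682, 731 and 644 CPM at Day 3 (-0.76 ± 0.18, adjusted p = 0.0109). The natriuretic peptide Nppb had 107, 129, 92.2 and 95.4 CPM at Day 7, against 235, 184, 207 and 164 CPM at Day 3 (-0.90, adjusted p = 0.0214). In each of the 3 the groups did not overlap, and Nppb alone lost its call in leave-one-out fits (without Day 3 replicate 3, Day 7 replicate 1, Day 7 replicate 4, adjusted p up to 0.0634). The alpha-actinin of non-muscle cells Actn1 (-1.04) and nestin (Nes, -0.74) completed the 5 of 17 fetal and stretch genes that fell, and none rose. Other members of that program did not pass the test. Nppa changed by -0.25 ± 0.46 (adjusted p = 0.761), Acta1 by -0.06 ± 0.30 (0.920) and Myh7, the slow myosin, by 0.29 ± 0.50 (0.740), which had 40.2, 136, 29.8 and 70.97 CPM in Day 7 libraries and 27.6, 47.2, 56.5 and 94.6 CPM in Day 3 libraries. Over the course, Ankrd1 averaged 271, 1132, 695, 411, 494 and 472 CPM at Days 0, 1, 3, 7, 14 and 28, so that Day 7 lay between unoperated hearts and Day 3.

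Heme oxygenase 1 (Hmox1, chr8:75093621-75100589, plus strand), which degrades heme and is induced by oxidants, had the smallest adjusted p of all genes. Its level was 0.913, 0.885, 0.663 and 0.832 CPM at Day 7, against 5.53, 14.4, 6.57 and 8.21 CPM at Day 3 (log2 fold change -3.40 ± 0.29, adjusted p = 3.51e-07). The Day 7 libraries spanned a narrow range, and the lowest Day 3 library was above all of them. The redox genes Txn1 (-0.90), Gpx1 (-0.88), Srxn1 (-0.52), Txnrd1 (-0.46) and Nqo1 (-0.45) were lower too, 6 of 20 antioxidant genes in all with none higher (median -0.35). Srxn1 and Nqo1 were called in 2 and 3 of the 8 leave-one-out fits and the other 4 in all 8, and with length offsets 4 of the 20 were lower, while Sod2, Cat and Gpx3 were at 0.11, 0.15 and 0.05 and did not pass. Glucose transporter 1 (Slc2a1, -0.95, adjusted p = 0.000615), the glycolytic enzyme Pgam1 (-0.52) and lactate dehydrogenase A (Ldha, -0.46, called in none of the 8 leave-one-out fits) fell among 22 glycolysis genes. Of immediate early genes Myc (-1.56, adjusted p = 4.61e-05), Klf6 (-0.66), Zfp36 (-0.54) and Ier3 (-0.76, groups overlapping) were lower among 23 tested, Zfp36 and Ier3 in 4 and 2 of the 8 leave-one-out fits, and Fos, Jun, Egr1 and Atf3 did not pass. The growth factor Hbegf, a ligand of the EGF receptor, was lower (-1.11, adjusted p = 2.18e-05). The small chaperone Cryab, abundant in CM, had 223, 293, 357 and 264 CPM at Day 7, against 542, 489.6, 578 and 565 CPM at Day 3 (-0.94, adjusted p = 0.00416), the only one of 16 heat shock genes to pass. Bcl2, which blocks apoptosis, differed by less than the spread (0.03 ± 0.25, adjusted p = 0.961).

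Genes of the unfolded protein response, which raises the folding capacity of the endoplasmic reticulum, were lower in part. Of 20 genes 8 were lower, none higher, and 18 estimates were below 0 (median -0.33). Sdf2l1 had 0.791, 0.627, 0.663 and 0.832 CPM at Day 7, against 2.04, 1.89, 2.55 and 3.31 CPM at Day 3 (log2 fold change -1.73 ± 0.22, adjusted p = 4.61e-05). The disulfide isomerase Pdia6 had 13.2, 12.2, 13.6 and 15.9 CPM at Day 7, against 24.01, 22.8, 23.9 and 25.1 CPM at Day 3 (-0.80). Both were separated in all libraries, as were Creld2 (-0.82), the secreted Manf (-0.80), Dnajb11 (-0.54) and the transcription factors Atf4 (-0.54) and Xbp1 (-0.49), and all 7 were called in each leave-one-out fit. Calr, the calcium-binding chaperone, overlapped between groups (-0.56, called in 3 of 8 fits). The chaperone Hspa5 had an estimate of -0.36 ± 0.12 (adjusted p = 0.0595), and Ddit3 and Dnajb9 were at 0.21 and 0.01. With length offsets only 1 of the 20 was called lower.

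The endoplasmic reticulum stress element (ERSE), through which Atf6 acts with NF-Y, was searched in the same promoter windows on both strands, as CCAAT followed after 9 bases of any kind by CCACG. It was in 37 of 27025 genes (0.137%) and in 7 of the 18 members of the list that had a promoter. Of these 7, 3 were called lower at Day 7 (Pdia6, Creld2, Calr) and 4 were not (Hspa5, Hsp90b1, Canx, Dnajc3), which are 3 of the 7 lower members with a promoter and 4 of the 11 not called. The windows are shown to set the element of lower members beside that of a member that did not pass. Capitals mark the fixed letters, which read as CGTGG and ATTGG where the match is on the other strand.
Pdia6 (chr12:17266486-17266515, plus strand): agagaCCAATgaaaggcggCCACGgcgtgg
Creld2 (chr15:88819515-88819544, plus strand): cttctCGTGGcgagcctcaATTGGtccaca
Calr (chr8:84847069-84847098, minus strand): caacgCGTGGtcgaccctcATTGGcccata
Hspa5 (chr2:34772020-34772049, plus strand): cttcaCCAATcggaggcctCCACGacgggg
The median log2 fold change was -0.36 in the 7 members with the element and -0.30 in the 11 without it, a difference that was not tested.

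Several tubulins and other cytoskeletal genes were lower. They belong to no list, and Tuba1c, Tubb2a, Tubb2b and Tubb6 were chosen after their values were seen. Tuba1a, an alpha-tubulin, had 6.24, 9.04, 8.16 and 9.04 CPM at Day 7, against 24.96, 27.3, 21.8 and 20.7 CPM at Day 3 (log2 fold change -1.55 ± 0.21, adjusted p = 6.48e-05). Tuba1b and Tuba1c (-1.34 and -1.23) and the beta-tubulins Tubb2a, Tubb2b and Tubb6 (-1.52, -1.72 and -1.73) were lower too, and since their coding sequences are nearly alike, reads may be split among them. Vimentin (Vim) had 28.6, 37.3, 35.4 and 40.6 CPM at Day 7, against 87.3, 91.9, 82.4 and 88.5 CPM at Day 3 (-1.30). The annexin partner S100a10 (-1.39), the actin-binding Tmsb4x (-1.29) and Cfl1 (-1.25) were also among the 12 abundant genes with the lowest fold changes. Beta-actin (Actb) had 67.7, 102, 115 and 106 CPM at Day 7, against 111, 247, 135 and 253 CPM at Day 3, with overlapping groups (-0.93, adjusted p = 0.0354) and a call in 3 of the 8 leave-one-out fits (adjusted p up to 0.131 in the others).

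A few genes of the contractile apparatus and of ion channels were higher. Titin (Ttn, chr2:76703980-76982547, minus strand), the spring that spans the sarcomere from Z-disc to M-band, had 6991, 5793, 4692 and 5969.9 CPM at Day 7, against 3849, 3969, 3199 and 2967 CPM at Day 3 (log2 fold change 0.75 ± 0.18, adjusted p = 0.0119). All Day 7 libraries were above all Day 3 libraries, and the call was lost only without Day 7 replicate 1 (adjusted p = 0.0720). The Z-disc protein Nebl changed by 0.71 (called in 2 of 8 leave-one-out fits), and no other sarcomere gene of 20 passed. Myh6, the fast myosin of the adult mouse ventricle, had 1911, 2432, 2177 and 2777 CPM at Day 7, against 844, 1560.2, 1031 and 1724 CPM at Day 3, without overlap, but an adjusted p of 0.0722 (0.85 ± 0.30). Troponins Tnnt2 and Tnni3 and cardiac actin Actc1 were at -0.07, 0.06 and -0.01. Of 23 calcium handling and conduction genes 4 rose, among them the inward rectifier Kcnj2 (33.9, 25.2, 24.2 and 22.6 CPM at Day 7, against 16.9, 17.1, 13.8 and 13.6 CPM at Day 3, 0.79, adjusted p = 0.0203), the atrial potassium channel Kcnj3 (0.57) and the calcium release channel Ryr2 (0.55). These 3 were called in 5, 1 and 3 of the 8 leave-one-out fits. The calcium pump Atp2a2 was at 0.22 ± 0.14 (adjusted p = 0.308). Among 14 intercalated disc genes the desmosomal cadherin Dsc2 rose in all 8 fits (0.65, adjusted p = 0.00471) and desmoplakin Dsp in 1 (0.51, adjusted p = 0.0449).

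From 500 bases upward, the changes over all genes ran with transcript length. The expressed transcripts of Ttn, Nebl, Ryr2 and Kcnj2 averaged 17909, 2149, 4222 and 5444 bases, Nebl being below the median of all genes (2477 bases). Among all genes with transcripts over 8000 bases 15.5% were higher and 0.345% lower, against 0.971% higher and 11.9% lower among those of 500 to 1000 bases. The median log2 fold change was 0.40 in transcripts over 8000 bases and -0.28 in the bin of 500 to 1000 bases. The shortest bin, up to 500 bases (593 genes), broke this order, with a median of 0.40, 2.70% higher and 3.54% lower. The median effective length that Salmon gave to 979 transcripts of 1900 to 2100 bases was 1433, 1674, 1390 and 1422 bases in Day 7 libraries and 1331, 1869, 1313 and 2128 bases in Day 3 libraries. With length offsets Ttn changed by 0.40 (adjusted p = 0.390), and none of the 20 sarcomere and 23 calcium handling genes was called. Among the groups with lower genes, those offsets left 6 resident macrophage genes called lower (8 without offsets), 9 cytokines and chemokines (11), 4 acute phase genes (7), 3 complement genes (5), 1 Toll-like receptor and inflammasome gene (4), 3 proteases and inhibitors (6), 2 matricellular genes (4), 4 TGF-beta genes (6), 4 fetal and stretch genes (5), 1 immediate early gene (4) and 1 glycolysis gene (3). Among the groups with higher genes, 1 mitochondrially encoded gene was called higher (3 without offsets) and no intercalated disc gene (2), matricellular gene (2), mesothelial gene (1), circadian gene (1), mitochondrial regulator (1) or protease (1). With offsets 1 intercalated disc gene was called lower, while none was without them. Of the IGF and imprinted genes, none was called with offsets (1 higher and 3 lower without). On the log2(TPM + 1) scale the sarcomere list had a median of -0.32 and the calcium list of -0.03, against 0.14 and 0.26 in counts. The sign of both medians thus differed between these units, but the median of all genes was itself -0.06 on log2(TPM + 1) and 0.03 in counts. With length offsets both list medians stayed positive, at 0.05 for the sarcomere list and 0.33 for the calcium list. The part of fragment length in these calls was not tested.

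**Figure D4:**
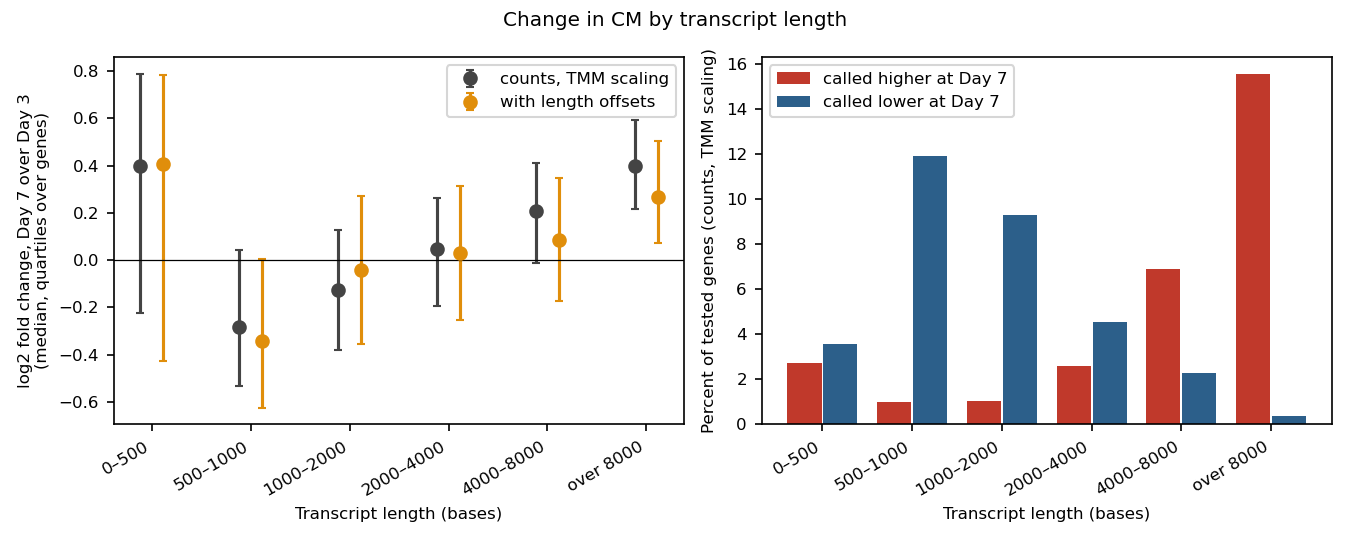
Left, median and quartiles of the log2 fold change of CM Day 7 over Day 3 in 6 bins of transcript length, from counts with TMM scaling and with length offsets. Right, percent of the genes of each bin called higher and lower from counts. From 500 bases upward the median climbs with length from -0.28 to 0.40, and with offsets from -0.34 to 0.27. In the bin of up to 500 bases it is 0.40, and 0.41 with offsets.

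Of 13 genes of the mitochondrial genome 3 were called higher. Together the 13 summed to 150494 to 190727 CPM at Day 7 and 112150 to 165195 CPM at Day 3, with overlap. Their change was not tested against that of nuclear-encoded subunits. In the mitochondrial genome mt-Co1, the catalytic subunit of cytochrome c oxidase, had 35942, 33825, 31269 and 33496 CPM at Day 7, against 23835, 21198, 19026 and 18360.5 CPM at Day 3 (log2 fold change 0.71 ± 0.16, adjusted p = 0.0101). The lowest Day 7 library was well above the highest Day 3 library, and the call held in all 8 leave-one-out fits. The complex I genes mt-Nd5 and mt-Nd4l changed by 0.71 and 0.72, called in 1 and 2 of those fits, and the other 10 genes did not pass, with mt-Co2 and mt-Co3 at 0.01 and -0.01. Nuclear-encoded subunits of the respiratory chain had no called member among 36 by edgeR or DESeq2, with 1 higher and 5 lower at an unadjusted p under 0.05 and a median of -0.18. Fatty acid oxidation, the main fuel pathway of adult CM, had none among 27 by edgeR (3 higher at an unadjusted p under 0.05, 1 higher by DESeq2, median 0.03). Cpt1b, Acadm and Hadha were at 0.43, 0.03 and 0.18, and only the nuclear receptor Esrrg, which regulates mitochondrial genes, rose among 18 regulators (0.61, adjusted p = 0.0257, called in 2 of 8 leave-one-out fits). Over the course mt-Co1 averaged 44036, 32646, 20605, 33633, 35442 and 28256 CPM at Days 0, 1, 3, 7, 14 and 28.

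Other genes among the 12 abundant ones with the highest fold changes were Pfkfb2, the cardiac enzyme that makes the activator of phosphofructokinase (27.5, 21.3, 19.9 and 18.5 CPM at Day 7, against 12.3, 12.2, 10.7 and 13.7 CPM at Day 3, 0.83, adjusted p = 0.0105), the esterase Bche (0.83), the basement membrane protein Hmcn1 (0.81), the hypoxia-inducible factor hydroxylase Hif1an (0.79), Psd3 (0.77) and the insulin receptor substrate Irs1 (0.75). Hmcn1 and Irs1 were called in all 8 leave-one-out fits, and Pfkfb2, Bche, Psd3 and Hif1an in 7, 5, 4 and 2 of them (adjusted p up to 0.143). Igfbp3 (-0.85) and the imprinted Mest (-1.25) fell and held in all 8 fits. Igfbp7 (lower, -0.95) was called in none of them (adjusted p up to 0.139), Igfbp5 (higher, 0.68) in 3 (up to 0.191), and the neuregulin receptor Erbb4 (higher with overlapping groups, 0.66) in 2. Vascular growth genes had none of 22 called by edgeR (1 higher and 5 lower at an unadjusted p under 0.05, 1 lower by DESeq2). Mural cell genes had none of 10 called by either tool (1 higher and 2 lower at an unadjusted p under 0.05), and summed to 172.8 to 194.8 CPM at Day 7 and 147.0 to 174.9 CPM at Day 3. Of 19 circadian genes only Clock passed (0.57, groups overlapping, called in 2 of 8 leave-one-out fits).

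Cytoplasmic ribosomal proteins, coded by short transcripts with many processed pseudogenes that can share reads, were lower in 20 of 36 genes with all 36 estimates below 0 (median -0.65). Rpl3 had 26.98, 39.1, 32.996 and 31.1 CPM at Day 7, against 58.8, 62.5, 60.2 and 63.5 CPM at Day 3 (-0.91, adjusted p = 0.000505), and with Rpl10a and Rps27a it was one of the 3 called in all 8 leave-one-out fits. The list summed to 1577 to 2633 CPM at Day 7 and 2981 to 3806 CPM at Day 3. With length offsets 2 of the 36 were called lower.

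The same days were compared in EC, isolated from the supernatant with anti-CD144 beads and pooled from the same animals, a link the test did not model. CM and EC libraries were made in separate batches, so a difference of cell type and of batch cannot be told apart, and only the change within each cell type was set against the other. The change in CM differed from that in EC in 348 genes upward and 417 downward of 17370 tested (interaction contrast in edgeR, adjusted p under 0.05), which is 2.00% and 2.40%, or 4.40% together. In EC, 5 of 12 resident macrophage genes rose and none fell (against 7.98% and 11.8% of all genes called higher and lower in EC), and the change in CM was below that in EC in 9 of the 12. Lyz2 changed by -1.81 in CM and 1.70 ± 0.31 in EC (difference -3.57 ± 0.42, adjusted p = 0.000382). C1qa changed by -1.42 in CM and 2.24 ± 0.54 in EC (difference -3.72 ± 0.66, adjusted p = 0.00463), and Mrc1 by -1.39 in CM and 1.12 ± 0.22 in EC (-2.58 ± 0.33, 0.000382). On the scale of these 16 libraries the resident macrophage list summed to 46.7 to 77.0 CPM in CM at Day 7 and 100.2 to 149.4 CPM at Day 3, and to 65.7 to 76.9 CPM in EC at Day 7 and 43.5 to 52.5 CPM at Day 3. Cytokines and chemokines had 8 of 21 members with a change below EC and none above it, among them Ccl12 (-4.21) and Ccl7 (-2.27), while Ccl2 did not pass (difference -1.37 ± 0.48, adjusted p = 0.129).

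Few differences from EC were called among cell cycle, collagen and ribosomal protein genes. Cell cycle genes fell in 32 of 35 in EC, and the CM change was above that of EC in 1 of the 35 and below it in none. Ccna2 changed by -1.56 in CM and -1.33 ± 0.20 in EC (difference -0.30 ± 0.32, adjusted p = 0.669). Ribosomal proteins were lower in 23 of 36 in EC with no difference called. Of 19 collagens 11 rose in EC, and of 10 small leucine-rich proteoglycans 8, without a called difference from CM in either list. For Postn the difference was 0.10 ± 0.50 (adjusted p = 0.945) and for Eln -0.64 ± 0.54 (0.560). Tubulin genes Tuba1a and Tubb2a fell more in CM, with a difference of -1.21 ± 0.18 for Tuba1a and -1.36 ± 0.18 for Tubb2a (adjusted p = 0.00101 and 0.000520), and so did Tuba1b (-0.78, 0.0107). Tuba1c (0.01, adjusted p = 0.994), Tubb6 (-0.37, 0.286) and Tubb2b (-0.97, 0.0612) did not pass this test, with changes in EC of -1.30 ± 0.12, -1.42 ± 0.13 and -0.82 ± 0.18. Hmox1 fell more in CM (-3.40 in CM and -1.10 ± 0.21 in EC, difference -2.37 ± 0.33, adjusted p = 0.000780). In EC 11 of 20 unfolded protein response genes and 4 of 18 fetal and stretch genes fell, without a called difference from CM. Ankrd1 changed by -0.87 ± 0.34 in EC (difference 0.04 ± 0.48, 0.980). Of 20 antioxidant genes 8 fell in EC, and the CM change was below that of EC in 2. It was also below in 7 of 24 immediate early and 5 of 11 acute phase genes, and above in 3 of 22 glycolysis genes. Of genes higher in CM, Kcnj2 (1.07 ± 0.21, adjusted p = 0.00799) and mt-Nd4l (1.12 ± 0.30, 0.0386) differed from EC, while Ttn did not pass (0.37 ± 0.34, 0.604).

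**Figure D5:**
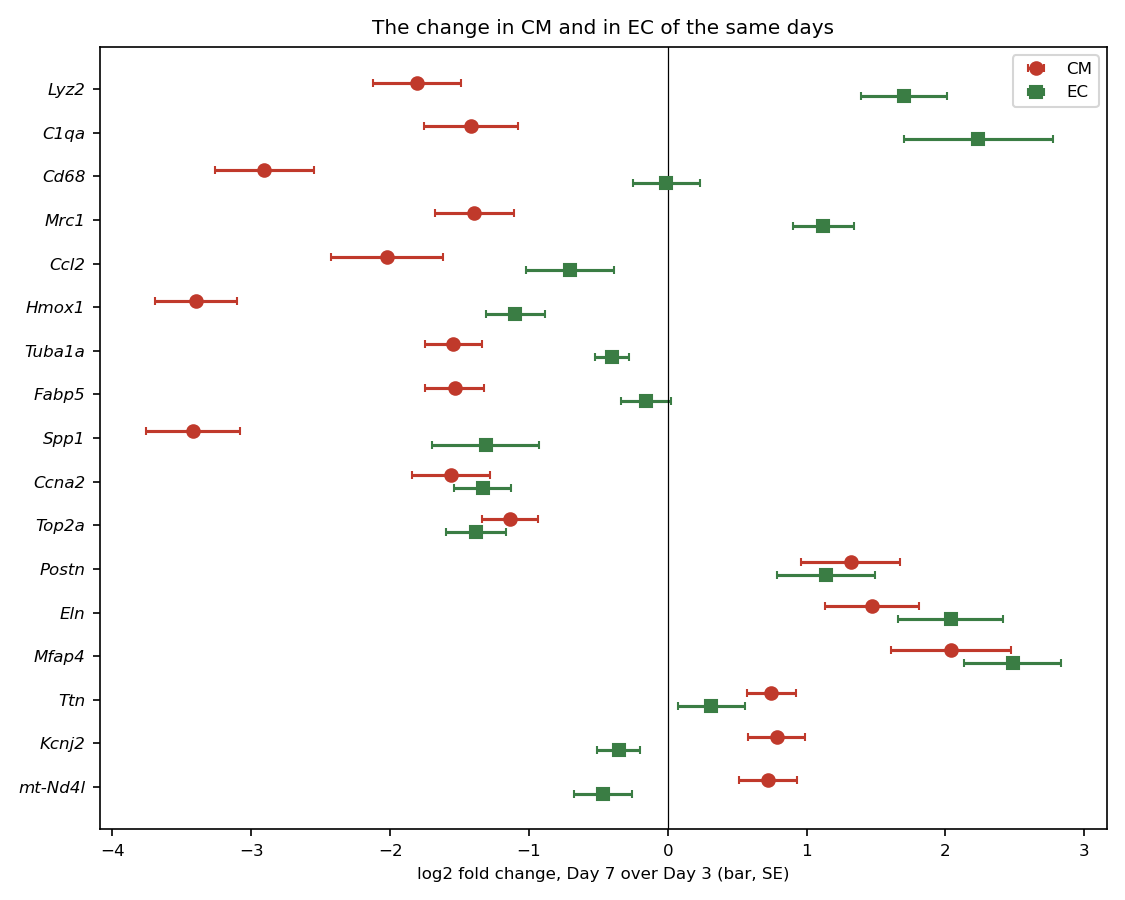
Log2 fold change of Day 7 over Day 3 for 17 genes in CM (circles) and EC (squares), with SE bars. Lyz2, C1qa, Cd68 and Mrc1 lie left of 0 in CM and right of it or near it in EC, while Ccna2 and Top2a are left of 0 in both.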

How the data were processed

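Total RNA was measured in CM pools of mouse hearts after ligation. The libraries were made with the CATS Total RNA-seq kit after rRNA depletion (fragmentation, 3′ polyadenylation, oligo-T priming, template switch), a protocol in which fragment size can act on the read count of a transcript by its length. Per the submitters' notes the tools were Trim Galore, STAR 2.28 (mm10) and Salmon, and the authors deposited per transcript the expected count, TPM and the effective length. Strandedness was not given in the sources used here, so overlapping antisense genes are uncertain.

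Expected counts were summed per gene (GENCODE M21, GRCm38) and rounded. Of 137734 entries 1057 had no gene (0.0986 to 0.156% of the reads of the 8 libraries) and were left out. edgeR 4.0.16 in R 4.3.3 (filterByExpr, TMM, robust quasi-likelihood fit) was run over all 24 CM libraries with 1 coefficient per day, and p-values were adjusted by Benjamini-Hochberg over 14540 genes. Genes were called at an adjusted p under 0.05. An SE is the absolute log2 fold change over the square root of the F statistic. The contrast with EC used 16 libraries. The other 64 files of the series were not used. Alternatives were DESeq2 1.42.0, limma 3.58.1 on TPM with pseudocounts of 1 and 0.1, effective length offsets, other scalings and filters, a replicate block, and each library left out. For limma the TPM were not scaled by TMM. The scaling without mitochondrial and rRNA genes was chosen after seeing the data. The code was tested on simulated data.

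Named genes were the 12 highest and 12 lowest called changes among separated genes of at least 10 CPM, the 2 strongest called members per direction of 51 gene lists, the cell type markers, Actb and Bcl2. A few genes that this rule names are not reported here. Every other gene named was chosen after its values were seen. The comparison, lists and tests were chosen with earlier results of these data known. Promoters are RefSeq's (GRCm38.p6). Counting intervals are exact at 95%, and a protocol without molecular identifiers makes them cover counting error only.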

Additional observations from a re-analysis of the deposited data

Results flagged for a closer look

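In 274 groups of 4 CM libraries (143 genes at Day 7 and at Day 3, without groups of very few reads), the highest and the lowest library were checked for a gap to the nearest of the others above Dixon's 95% critical value, and 15 groups had such a library. Chance marks about 1 group in 20, and 15 of 274 is close to that share. At Day 7, replicate 2 was the highest library for Ankrd1 (530.9 CPM) and Gdf15 (1.77 CPM), replicate 3 for Lcn2 (1.61 CPM) and Ccl2 (2.56 CPM), and replicate 4 for Igfbp5 (58.1 CPM) and the macrophage receptor Adgre1 (1.15 CPM). At Day 3, replicate 2 was the highest for Mrc1 (8.96 CPM) and the lowest for Tuba1c (14.1 CPM). Day 3 replicate 3 was the highest for Pcolce2 (4.43 CPM) and the lowest for Irs1 (7.53 CPM) and Inhbb (0.574 CPM). Day 3 replicate 4, the library with 13.1% of its reads on Gm42418, was the highest for Myc (2.79 CPM) and Arg1 (9.68 CPM) and the lowest for Kcnj3 (19.5 CPM) and Pgam1 (24.0004 CPM).

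For 33 of 142 genes given with a value and tested in both cell types, the change of Day 7 over Day 3 in CM differed from that in EC (edgeR, adjusted p under 0.05 over 17370 genes), 31 of them downward. Over all 17370 genes the share was 4.40%, with 2.40% downward. Most of the 142 were chosen for their change in the same CM libraries that enter the contrast. A count above the share of all genes was thus favored by the choice and is no result of its own. Differences are CM minus EC on the log2 scale, with the adjusted p. Markers of macrophages and other leukocytes had differences of -4.00 for Folr2 (0.0120), -3.91 for Tyrobp (0.00826), -3.00 for Adgre1 (0.000786), -2.97 for Cd68 (0.000354), -2.86 for Cbr2 (0.00630), -2.58 for Mrc1 (0.000382), -2.47 for Ccr2 (0.00695), -2.16 for Fcer1g (0.00643) and -2.01 for Cd53 (0.00665). Complement genes had -3.72 for C1qa (0.00463), -3.37 for C1qc (0.00543), -2.97 for C1qb (0.0138), -3.43 for C5ar1 (0.00283) and -2.57 for C3ar1 (0.0248). Secreted, lysosomal and other cell surface products had -4.21 for Ccl12 (0.00793), -3.57 for Lyz2 (0.000382), -3.32 for Il1rn (0.0219), -3.14 for the chemokine Pf4 (0.00109), -2.84 for Adam8 (0.000384), -2.63 for the protease Ctss (0.00429), -2.27 for Ccl7 (0.0191), -2.18 for Spp1 (0.0379), -1.66 for Cd14 (0.0309) and -1.52 for Tgfbi (0.00878). Genes that are not specific to leukocytes had -2.37 for Hmox1 (0.000780), -1.44 for Fabp5 (0.00412), -1.36 for Tubb2a (0.000520), -1.21 for Tuba1a (0.00101), -1.15 for S100a10 (0.00463), -0.88 for Hbegf (0.00481) and -0.78 for Tuba1b (0.0107). Upward, Kcnj2 was at 1.07 (0.00799) and mt-Nd4l at 1.12 (0.0386). Nuclear rRNA genes took 2.02 to 7.85% of EC reads at Day 7 and 0.006 to 0.193% at Day 3, and their part in these differences was not tested.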

How the results depend on the processing

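Counts are given as higher and lower genes, 452 and 848 as reported. They were 63 and 253 with effective length offsets, 235 and 616 with no filter on low counts, 1030 and 1314 with the replicate number as a replicate block, and 20 and 1746, 12 and 1424, and 28 and 1527 by limma on log2(TPM + 1), on log2(TPM + 0.1), and on log2(TPM + 1) of genes over 0 in a library. Leaving out 1 library gave 68 to 614 higher and 400 to 930 lower genes, the lowest of both without Day 7 replicate 1 and the highest of both without Day 7 replicate 3. With only the 8 libraries, RLE factors, rRNA genes left out, mitochondrial and rRNA genes left out (chosen after seeing the data) and DESeq2, there were 349 to 598 higher and 885 to 1135 lower genes. The median of all genes was 0.03 as reported and -0.22 on log2(TPM + 0.1).

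Of 141 genes given with a test, 115 were called, of which 74 kept the call in all 8 leave-one-out fits, 57 with length offsets and 76 on log2(TPM + 1). None of these 115 called genes changed direction in any of these fits, and 14 of the given genes that were not called did. Over all calls the losses were larger. Of all 452 higher genes, 38 kept the call with length offsets and 15 on log2(TPM + 1), where 354 kept their direction. Of all 848 lower genes, 240 kept the call with length offsets and 615 on log2(TPM + 1), where 846 kept their direction. CM minus EC gave 348 upward and 417 downward genes, 234 to 500 and 235 to 476 when a CM library was left out (235 and 272 downward without Day 7 replicates 1 and 2), 355 and 403 with RLE and 466 and 442 with the replicate block.

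Libraries of Day 7 and Day 3 that share a replicate number come from hearts harvested on different days, so from different mice. For that reason the numbers were not taken as pairs. Deviations of same-numbered libraries nonetheless correlated at 0.418, 0.0855, 0.25 and 0.172 over genes, all positive. With the replicate number as a block, 1030 genes were higher and 1314 lower. Whether libraries of one number shared a step of processing was not tested. Day 7 replicates 2 and 4 correlated best with Day 3 replicates 4 and 2 (0.129 and 0.295). The cause of the moved counts was not tested. Depth limits genes such as Folr2, Il1b, Comp, C1qtnf3 and Col8a2, which had under 10 reads in some libraries.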

Other observations

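Set against unoperated hearts, the levels of Day 7 show how far the fall or rise had gone, in a comparison that shares the Day 7 libraries with the one reported. Spp1 was still higher at Day 7 than at Day 0 (log2 fold change 7.14, adjusted p = 2.74e-07), with 3.46 ± 1.14 CPM at Day 7 and 0.0211 ± 0.0153 CPM at Day 0 (SD, n = 4 each). Sprr1a had 2.06 ± 1.70 CPM at Day 7 and 0.0120 ± 0.0239 CPM at Day 0 (6.86, adjusted p = 0.000368), and Hmox1 0.823 ± 0.112 CPM at Day 7 and 0.211 ± 0.0583 CPM at Day 0 (1.91, adjusted p = 0.00109). Periostin had 41.3 ± 21.4 CPM at Day 7 and 2.09 ± 0.414 CPM at Day 0 (4.31, adjusted p = 6.75e-07), and Ttn 5861 ± 941 CPM at Day 7 and 6842 ± 325 CPM at Day 0 (-0.22, adjusted p = 0.466).

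Of 17 genes of apoptosis and cell death, 15 estimates for Day 7 over Day 3 were below 0 and 1 passed the test. Ripk3 and Mlkl, of necroptosis, were at -1.04 and -0.69 (adjusted p = 0.0522 and 0.130). Of 17 genes of branched-chain amino acid and ketone use edgeR called none (2 higher at an unadjusted p under 0.05, none by DESeq2). Of 16 hypoxia genes Slc2a1 alone passed, and Vegfa was at 0.21 (adjusted p = 0.231).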
